A study of Mus musculus with 16 samples.

Results

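The enzymes that build triglyceride on a glycerol backbone were followed in mouse liver through 10 genes: the glycerol-3-phosphate acyltransferases Gpam and Gpat2, the lysophosphatidate acyltransferases Agpat2 and Agpat3, the lipins Lpin1, Lpin2 and Lpin3, the diacylglycerol acyltransferases Dgat1 and Dgat2, and the monoacylglycerol acyltransferase Mogat1. They were picked by name among the 37074 gene names of the array, and their 24 probes were all examined. The study asked how the liver of conventional mice responds to a transferred gut microbiota, with 1 array for each of 16 male C57BL/6 mice. Conv + PBS mice (n = 6) received the reduced PBS vehicle, although their labels call them controls without a transplant. Conv + LM mice (n = 5) received the caecal microbiota of lean mice, and Conv + OM(HFD) mice (n = 5) that of mice made obese by a high-fat diet (OM, obese microbiota). All recipients entered at 6 weeks of age, ate normal chow for 4 weeks, were never given antibiotics and were killed after a fast at 10 weeks of age. The caecal contents of several donors were pooled for each transplant, so the mice of a group share donors, and the study kept its mice 5 or 6 to a cage, which is also the size of the groups. The labels do not give the cages, so a cage and a group cannot be told apart. The p-values therefore measure the spread between these mice only.

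Triglyceride assembly runs in steps. A first fatty acid is placed on glycerol-3-phosphate by Gpam or its relatives, a second one by an Agpat enzyme, and the phosphate is then removed by a lipin to give diacylglycerol. Dgat1 and Dgat2 add the last fatty acid, and Mogat1 reaches diacylglycerol by another route, from monoacylglycerol. Lipin 1 is also known in the liver as a nuclear partner of the fasting regulators PPAR alpha and PGC-1 alpha.

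Each array measured RNA through 60-base probes, and the first 30 bases of the probe that stands for Gpam, Gpat2 and each lipin are shown because the group differences and the spread between mice described here rest on these probes. Positions are those of the array design on mm9, the files name the gene but no exon or untranslated part, and all letters are in lower case since no base is singled out.
Gpam, chr19:55142203-55142262, minus strand: attgtaaaaaagcactgtgtgactttgtga
Gpat2, chr2:127261706-127261765, plus strand: ggagcctgatgggacttgtcagcttaaact
Lpin1, chr12:16543023-16543082, minus strand: tatatgggtaccatacatttcaaagttgct
Lpin2, chr17:71598998-71599057, plus strand: agtgccactaagcagctttaagttgtccgt
Lpin3, chr2:160731469-160731528, plus strand: ctcagtacagccctgacctctaacaattaa

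Levels are given as log2 of the background-corrected signal relative to the 75th percentile of the signals on the same array, so 0 is the brightness of that percentile and a step of 1 is a doubling. The percentile itself lay between 223.1 and 323.7 intensity units on the 16 arrays, between 49.7% and 58.3% of probes were well above background, and no spot was saturated. The hepatocyte list (Alb, Apoa1, Ttr, Tat, Cyp2e1, Serpina1a) was well above background on every array for 6 of 6 genes, with a mean level of 8.95 to 9.40 over all mice. Of the lists of other tissues, 3 of 6 pancreas acinar genes (Cel, Cela1, Amy2a5), 2 of 5 intestinal epithelium genes (Fabp2, Lgals4), 2 of 6 adipocyte genes (Lep, Fabp4) and 1 of 4 muscle genes (Tnnt3) were well above background on every array, while Cpa1 of the pancreas list and Ckm of the muscle list were so on none. The 5 Kupffer cell genes (Clec4f, Timd4, Cd5l, Vsig4, Marco) had a mean level of 0.88 to 3.34 in Conv + PBS, 0.33 to 1.11 in Conv + LM and 0.55 to 2.10 in Conv + OM(HFD). The 4 adipocyte genes that could be tested had a mean level of -1.90 to -1.19, -1.97 to 0.72 and -2.94 to -1.49 in the same order. In whole liver, fewer cells of a type and less RNA per cell cannot be told apart.

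All 10 genes had a probe well above background on all 16 arrays. The signal of a probe depends on its sequence as well as on the transcript, and the 6 Lpin2 probes alone had means from -3.92 to 6.20, so the levels of different genes are given here side by side without ranking their transcripts. Of the glycerol-3-phosphate acyltransferases, the Gpam probe had a level of 4.86 over all mice and the Gpat2 probe one of -0.39. Agpat2 stood at 6.53 and Agpat3 at 4.95. Among the lipins, Lpin1 and Lpin2 stood at 5.41 and 6.20, and Lpin3 at -0.73. Dgat2 was read at 7.82, Dgat1 at 0.81 and Mogat1 at -2.32. Only 1 of the 3 Mogat1 probes and 1 of the 2 Lpin3 probes passed the filter of 5 arrays well above background, whereas every probe of the other 8 genes did. Gpat2, Dgat1 and Dgat2 were each read by only 1 probe.

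The genes differed most in how far the mice of a group lay apart. Lpin1 had a within-group SD of 0.82, larger than that of 95.9% of the 20400 genes tested, and its highest mouse was 5.75-fold above its lowest. Lpin2 and Lpin3 had within-group SDs of 0.39 and 0.39 and spans of 2.55-fold and 2.66-fold, and Mogat1, the dimmest of the probes, had an SD of 0.49 and a span of 4.02-fold. In contrast, the enzymes of the first and last step were even between mice, with a within-group SD of 0.12 for Gpam and 0.11 for Dgat2 and spans of 1.48-fold and 1.33-fold. Gpat2, Agpat2, Agpat3 and Dgat1 had SDs of 0.18, 0.20, 0.15 and 0.15. The median gene tested had a within-group SD of 0.24.

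**Figure D1:**
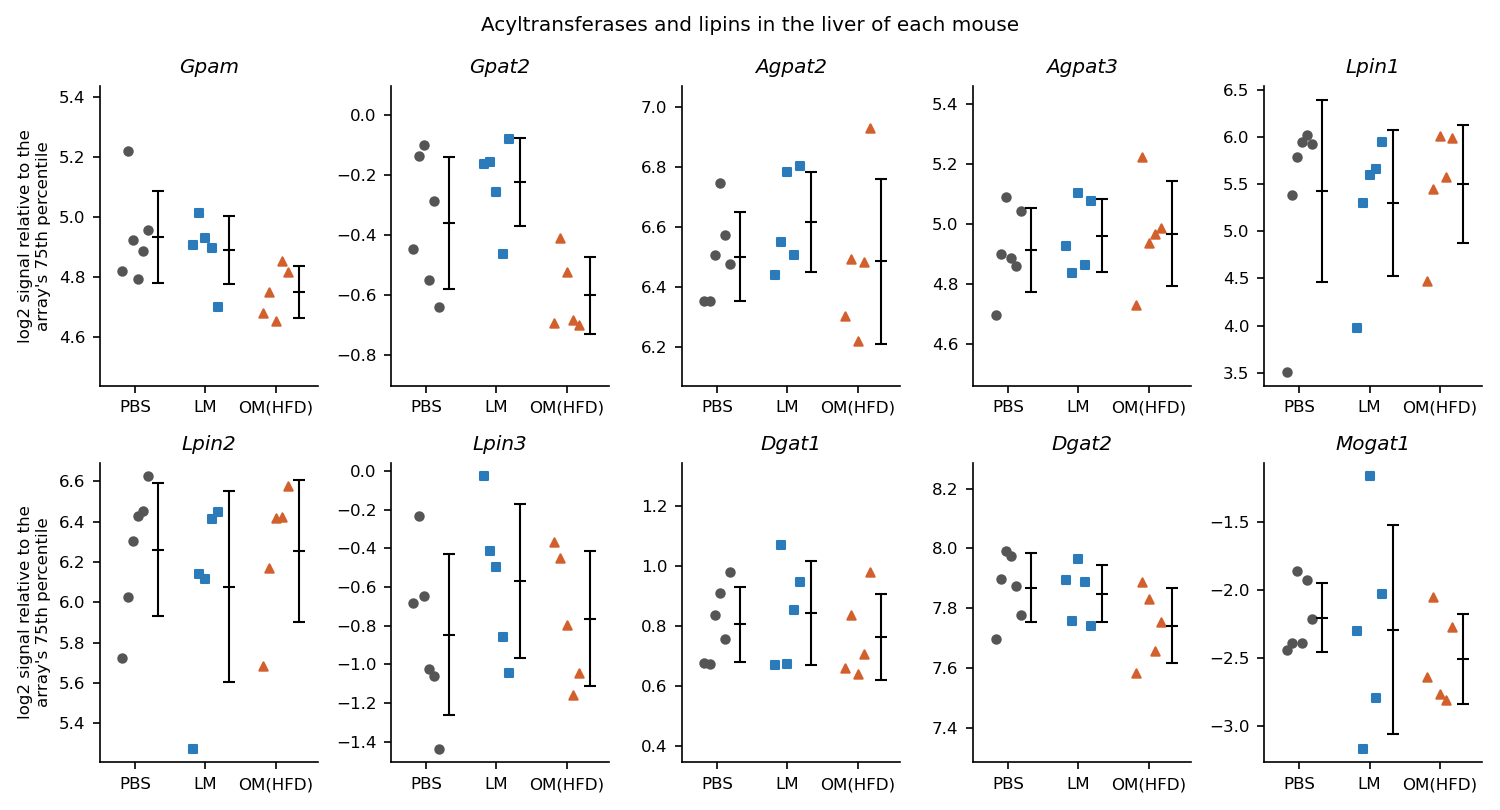
Level of each of the 10 genes in each mouse (y axis, log2 signal relative to the 75th percentile of the array, with a range of its own in each panel), by group (x axis), with the mean and SD of the group as a bar at its right and the mice of a group in the order of their numbers. In Lpin1, 1 mouse of each group lies far below the others, while Gpam and Dgat2 span 0.57 and 0.41 over all mice on the same scale.

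The comparison of Conv + OM(HFD) with Conv + PBS asks whether the obese microbiota moved these genes against vehicle. Both mitochondrial glycerol-3-phosphate acyltransferases were lower at an unadjusted p under 0.05, Gpat2 by 15.4% and Gpam by 11.9%, and the other 8 genes did not pass. The 2 of 10 genes at this threshold stand beside 3.27% of the 20400 genes tested, and no gene of the array passed an adjusted p of 0.05 in any of the 3 comparisons (limma with Benjamini-Hochberg adjustment). The 10 differences had a median of -0.028 on the log2 scale, against -0.00038 over all genes tested, and ran from -0.30 in Mogat1 to 0.085 in Lpin3. By the exact permutation test, 1 of the 10 had a p under 0.05, beside 3.23% of genes.

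Gpat2, the second mitochondrial enzyme of the first step, had levels in Conv + PBS of -0.64 at the lowest, -0.37 in the median and -0.10 at the highest. Conv + OM(HFD) mice 25, 26, 28, 29 and 30 had -0.69, -0.41, -0.52, -0.68 and -0.70. All 5 lay under the Conv + PBS median, yet the groups overlapped. The log2 difference was -0.24 (SE 0.11, 95% confidence interval -0.47 to -0.0090), with an unadjusted limma p of 0.0427 and an exact two-sided permutation p of 0.0693 over 5 against 6 mice, where the smallest possible p is 0.00216. Within the slides, the difference was -0.46 on slide 1 (3 against 3 mice) and -0.0015 on slide 2 (2 against 3 mice). The lower level was thus measured on 1 of the 2 slides, while with slide as a block the difference was -0.26 and the limma p 0.0255.

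Gpam, the mitochondrial enzyme that insulin induces in liver, had a lowest, median and highest level of 4.79, 4.90 and 5.22 in Conv + PBS. The Conv + OM(HFD) mice, in the same order as above, had 4.68, 4.75, 4.65, 4.85 and 4.82. Again all 5 lay under the Conv + PBS median, and the highest of them was above the lowest Conv + PBS mouse. The difference was -0.18 (SE 0.085, 95% confidence interval -0.36 to -0.0024) with an unadjusted limma p of 0.0474 and an exact permutation p of 0.0238. It was -0.29 on slide 1 and -0.056 on slide 2. The second Gpam probe, at chr19:55145403-55145462 and dimmer (-1.58), gave a difference of -0.024 (SE 0.18), and the mean of both probes one of -0.10 with a limma p of 0.398.

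Each of these calls against Conv + PBS was close to the threshold and was lost under 9 of 15 other settings, which were not all the same for the 2 genes. Both were lost, for example, with the authors' processed log2 values (limma p of 0.103 for Gpam at -0.18 and 0.0594 for Gpat2 at -0.19) and the fasting genes as a covariate (0.0603 at -0.17 and 0.0569 at -0.23). The Gpam call was also lost without any 1 of Conv + PBS mice 2, 3, 5 and 6 and Conv + OM(HFD) mice 25, 26 and 28, and the Gpat2 call without any 1 of Conv + PBS mice 2, 3 and 5 and Conv + OM(HFD) mice 25, 29 and 30, with log2 differences of -0.21 to -0.13 and of -0.30 to -0.19 over all mice left out in turn.

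Among the later steps, Dgat2, which esterifies newly made fatty acids, stood 8.37% below vehicle in Conv + OM(HFD), with a log2 difference of -0.13 (95% confidence interval -0.30 to 0.044) and a limma p of 0.134. Mogat1 gave -0.30 (95% confidence interval -0.90 to 0.29). For Agpat2, Agpat3 and Dgat1, the differences lay between -0.041 and 0.056 and their 95% confidence intervals between -0.28 and 0.26, that is, within about 1.21-fold either way. The lipins were read far less precisely, with an interval of -0.90 to 1.05 for Lpin1, of -0.48 to 0.46 for Lpin2 and of -0.39 to 0.56 for Lpin3, so that changes of Lpin1 of up to 1.87-fold down or 2.07-fold up lie inside its interval.

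For Conv + LM against Conv + PBS, which asks what a transfer of lean microbiota does, 0 of the 10 genes had an unadjusted limma p under 0.05, beside 3.95% of the genes tested, and the exact permutation test gave 0 of 10 as well, beside 4% of genes. The differences ran from -0.18 in Lpin2 to 0.28 in Lpin3 with a median of 0.0089. Lpin3 stood at -0.57 ± 0.40 (SD, n = 5) in Conv + LM and at -0.85 ± 0.42 (SD, n = 6) in Conv + PBS, with a limma p of 0.228. With the mouse number of the labels within each group as a covariate, added after seeing the data, the difference of 0.28 had an unadjusted limma p of 0.0188. In that fit 1152 of the 20400 genes tested had an unadjusted limma p under 0.05, against 806 without the covariate. Gpat2 was 0.14 above Conv + PBS (SE 0.11, p of 0.231 in limma) in Conv + LM. Dgat2 was measured most tightly, at -0.019 with a 95% confidence interval of -0.19 to 0.15.

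Between the 2 transplants, Gpat2 was the only one of the 10 genes at an unadjusted p under 0.05, beside 2.71% of the genes tested, and by the exact permutation test it was again the 1 of 10, beside 3.09%. Conv + LM mice 13, 14, 15, 16 and 17 had levels of -0.16, -0.15, -0.25, -0.46 and -0.077, so that the groups overlapped in Conv + LM mouse 16, which lay below Conv + OM(HFD) mouse 26. The obese microbiota group was 23.1% lower, with a log2 difference of -0.38 (SE 0.11, 95% confidence interval -0.62 to -0.14), an unadjusted limma p of 0.00463, no pass after adjustment over all genes and an exact permutation p of 0.0159, where 5 against 5 mice allow no p below 0.00794. It was -0.48 on slide 1 (3 against 2 mice) and -0.28 on slide 2 (2 against 3 mice). The other 9 genes had differences of -0.22 to 0.20 and limma p of at least 0.137. This comparison shares its Conv + OM(HFD) mice with the first one, and the levels of markers of other cell types are given beside it. The 3 pancreas acinar genes tested had a mean level of 0.90 to 1.59 in Conv + LM and 0.53 to 1.06 in Conv + OM(HFD), with log2 differences of -0.55 to -0.030, and 1 of them, Cel, was lower at an unadjusted limma p of 0.0390. The 4 adipocyte genes tested had differences of -1.89 to -0.043 with none at this threshold, and their mean was highest in Conv + LM mouse 15. The 5 Kupffer cell genes ran the other way, with differences of 0.23 to 0.87, the 3 intestinal epithelium genes tested had -0.53 to -0.099 and the 2 muscle genes tested 0.12 to 0.22, none at this threshold. The part of these markers in the Gpat2 difference was not tested.

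**Figure D2:**
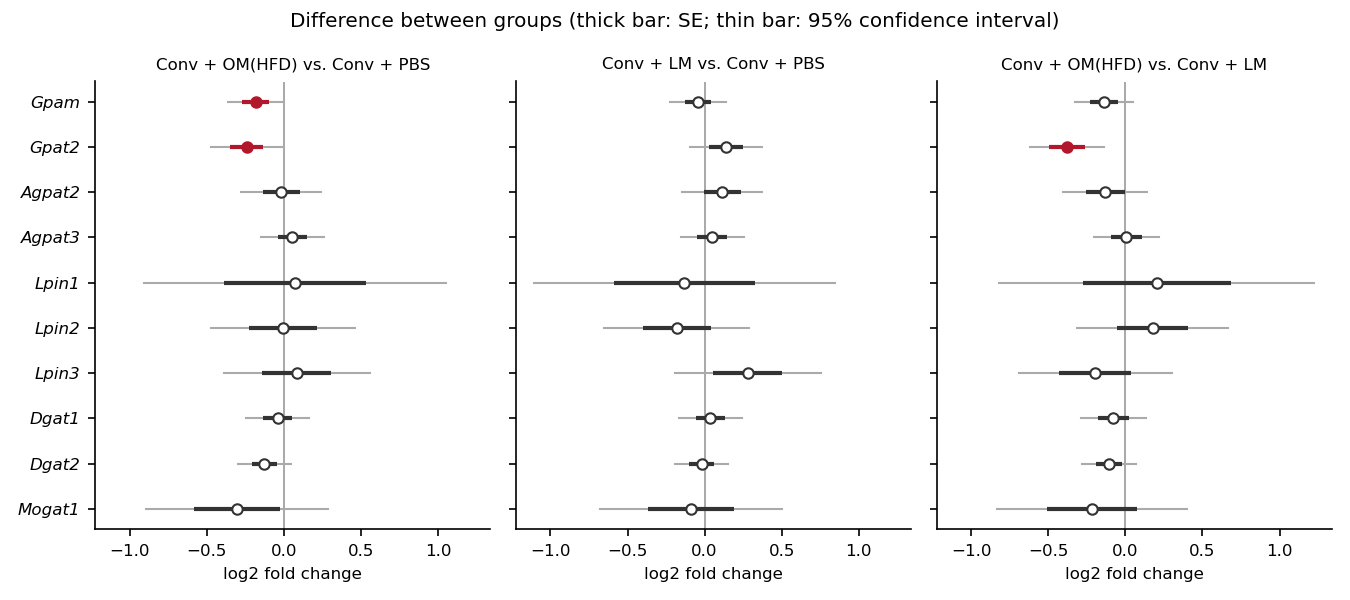
Log2 fold change of each gene (x axis) in the 3 comparisons, named above the panels, with the SE as a thick bar and the 95% confidence interval as a thin one. Filled points have an unadjusted limma p under 0.05 (Gpam and Gpat2 on the left, Gpat2 on the right), and the lipin and Mogat1 intervals are the widest.

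The lipins carried most of their variation inside the groups. Lpin1, the phosphatidate phosphatase that also acts as a coactivator, had 3.50 in Conv + PBS mouse 1, with 5.39 in the next lowest mouse of that group, a median of 5.86 and a highest level of 6.03. In Conv + LM mice 13 to 17 it had 3.97, 5.31, 5.60, 5.66 and 5.95, and in Conv + OM(HFD) mice 25, 26, 28, 29 and 30 it had 4.47, 5.45, 6.02, 5.58 and 5.99. One mouse in each group was therefore low, in each case the one with the lowest number in the labels, while the remaining 13 mice lay between 5.31 and 6.03, and the group means of 5.43 ± 0.97 (SD, n = 6), 5.30 ± 0.78 (SD, n = 5) and 5.50 ± 0.63 (SD, n = 5) were close together.

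The 4 Lpin1 probes gave the same picture. On the other 3 probes, Conv + PBS mouse 1 had 2.79, -1.50 and -2.38, Conv + LM mouse 13 had 3.10, -0.83 and -1.86 and Conv + OM(HFD) mouse 25 had 3.54, -0.67 and -1.61, each the lowest of its group on that probe. Over the 16 mice the probes correlated with the brightest one at r = 0.99, 0.93 and 0.98, which describes how alike they are and is not a test. The low level of these mice was thus read by 4 separate probes.

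Lpin2, a lipin prominent in liver, followed Lpin1 at a smaller scale. It was lowest in the same mice, at 5.72 in Conv + PBS mouse 1, 5.27 in Conv + LM mouse 13 and 5.68 in Conv + OM(HFD) mouse 25, and its highest levels were 6.63, 6.45 and 6.58 in the 3 groups. The 6 Lpin2 probes did not all share this pattern. Of the 5 other probes, those at means of 1.28 and 3.06 correlated with the brightest at r = 0.92 and 0.88, and the remaining 3, with means of -0.43, -1.43 and -3.92, at r = 0.33, 0.19 and 0.22. The array design assigns the brightest probe and those at 1.28 and 3.06 to RefSeq transcripts of Lpin2. It assigns the remaining 3 to other, Ensembl transcripts, so the 6 probes need not read the same RNA.

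**Figure D3:**
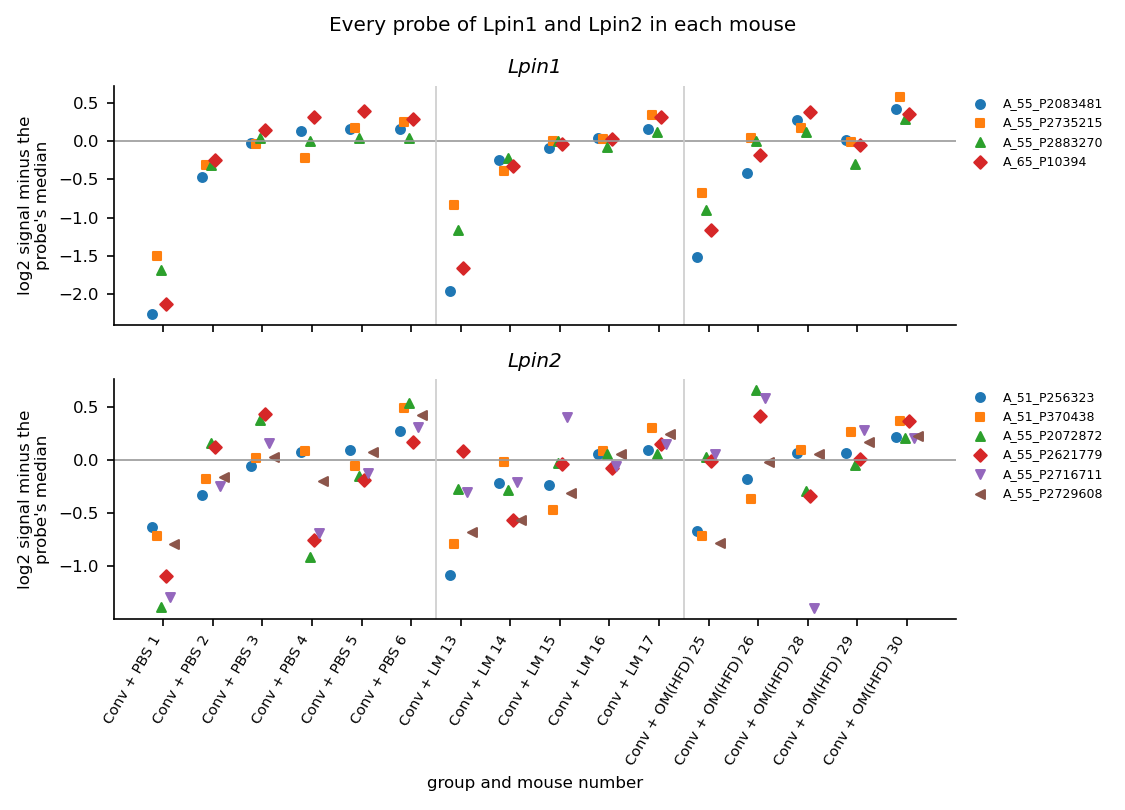
Log2 signal of every Lpin1 probe (top) and Lpin2 probe (bottom) minus the median of that probe over 16 mice (y axis), for each mouse (x axis), with grey vertical lines between the groups and a symbol for each probe, named at the right by its identifier on the array. All 4 Lpin1 probes are lowest in mice 1, 13 and 25 of their groups, whereas the Lpin2 probes spread apart.

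Lpin3 ran the other way. Its lowest, median and highest levels in Conv + PBS were -1.44, -0.85 and -0.23. Conv + LM mice 13 to 17 had -0.026, -0.41, -0.49, -0.86 and -1.04 and Conv + OM(HFD) mice 25, 26, 28, 29 and 30 had -0.37, -0.45, -0.80, -1.16 and -1.04. The mice with the lowest Lpin1 in the Conv + LM and Conv + OM(HFD) groups thus had the highest Lpin3, and in Conv + PBS the highest Lpin3 was in mouse 2, the next lowest for Lpin1. The balance of Lpin2 against Lpin3 within an array, which is comparable between mice but not as an absolute ratio, moved by 2.76 on the log2 scale, or 6.79-fold, from Conv + LM mouse 13 to Conv + PBS mouse 6. That of Lpin1 against Lpin3 moved 10.3-fold between the same mice. By comparison, the balance of Dgat2 against Dgat1 moved 1.52-fold over the 16 mice, that of Agpat2 against Agpat3 1.60-fold and that of Gpam against Gpat2 1.76-fold.

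The spread of each gene between mice was set against 3 measures of the state of the liver, each mouse's distance from the mean of its group being used and permuted 100000 times inside the groups: the mean of 9 fasting genes (Pdk4, Cpt1a, Angptl4, Fgf21, Cyp4a10, Cyp4a14, Acot1, Plin2, Vnn1), the mean of 10 lipogenic genes (Fasn, Acaca, Acly, Me1, Elovl6, Thrsp, Scd1, Acss2, Pklr, Pnpla3) and Arntl, the clock gene that encodes BMAL1. The same relations were computed for every gene on all 16 arrays, apart from the genes of the measure itself, and p-values were adjusted by Benjamini-Hochberg over all of them. An adjusted permutation p under 0.05 for both Pearson's r and Spearman's rho was found with the fasting genes for 2 of the 10 genes, beside 6.24% of 20318 genes, with Arntl for 4 of 10, beside 5.89% of 20326 genes, and with the lipogenic genes for 0 of 10, beside 0% of 20317 genes. At an unadjusted p under 0.05 for both, the counts were 4, 5 and 2 of 10, beside 20%, 20.3% and 14.5% of genes, so such relations were common on these arrays. The levels of all measures come from the same arrays, so the noise of an array is shared by both sides of a relation.

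With Arntl, Lpin1 gave r = 0.78 (permutation p = 0.00050, adjusted 0.0172) and rho = 0.82 (p = 0.00048, adjusted 0.0181). Lpin2 gave r = 0.90 (p = 3e-05, adjusted 0.00604) and rho = 0.88 (p = 7e-05, adjusted 0.00906). Lpin3 gave r = -0.88 (p = 4e-05, adjusted 0.00640) and rho = -0.86 (p = 0.00013, adjusted 0.0104). Lpin1 and Lpin2 were therefore higher, and Lpin3 lower, in mice with more Arntl RNA than their group mates. The mouse numbers of the labels moved with these measures as well. Over the deviations from the group means of the 16 mice, the number had an r of 0.92 with Arntl, 0.90 with the fasting genes, -0.69 with the lipogenic genes, 0.79 with Lpin1, 0.89 with Lpin2, -0.91 with Lpin3, 0.60 with Agpat2 and 0.51 with Dgat1, given here as a description. With the number as a term, r with Arntl was 0.19 for Lpin1, 0.46 for Lpin2 and -0.24 for Lpin3, and r with the fasting genes was -0.085, 0.15 and -0.49. What the numbers stand for is not given in the sources used here, and their part in the relations was not tested. The permutation p-values treat the mice of a group as exchangeable and do not allow for such a shared arrangement. Without the 2 mice farthest from the median of Arntl (Conv + LM mouse 13 and Conv + OM(HFD) mouse 30), r was 0.72, 0.88 and -0.87, and without the 3 mice of lowest Lpin1 it was 0.74, 0.85 and -0.84. Within slide 1 it was 0.84, 0.89 and -0.91 and within slide 2 0.88, 0.89 and -0.79, with 8 mice on each.

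**Figure D4:**
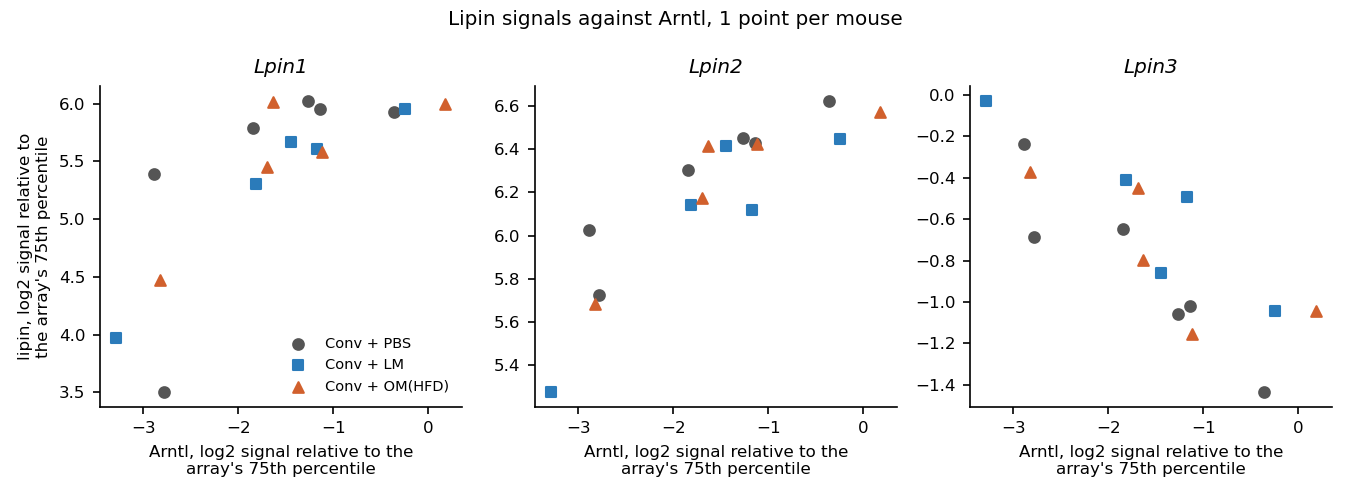
Level of Lpin1, Lpin2 and Lpin3 (y axes, each with its own range) against that of Arntl (x axis), both as log2 signal relative to the 75th percentile of the array, with 1 point per mouse and a symbol and colour for each group. Lpin1 and Lpin2 rise with Arntl and Lpin3 falls, with the points of the 3 groups interspersed.

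The fasting genes gave r = 0.69 (permutation p = 0.00627, adjusted 0.0644) and rho = 0.72 (p = 0.00483, adjusted 0.0580) with Lpin1, r = 0.83 (p = 0.00026, adjusted 0.0126) and rho = 0.87 (p = 0.00015, adjusted 0.00999) with Lpin2. With Lpin3 they gave r = -0.90 (permutation p = 4e-05, adjusted 0.00655) and rho = -0.91 (p = 5e-05, adjusted 0.00673). Lpin2 and Lpin3 passed after adjustment and Lpin1 did not. Without the 2 mice farthest from the median of the fasting genes (Conv + PBS mouse 2 and Conv + OM(HFD) mouse 25), r was 0.72, 0.81 and -0.86, and within the slides it lay at 0.71 and 0.74 for Lpin1, 0.76 and 0.85 for Lpin2 and -0.95 and -0.89 for Lpin3. Agpat2 did not pass with this measure, at r = 0.65 (permutation p = 0.00794, adjusted 0.0749) and rho = 0.69 (p = 0.00667, adjusted 0.0705). It passed with Arntl, at r = 0.77 (permutation p = 0.00125, adjusted 0.0267) and rho = 0.78 (p = 0.00129, adjusted 0.0288), and within slides 1 and 2 its r was 0.77 and 0.37 with the fasting genes and 0.85 and 0.54 with Arntl. Without the 2 farthest mice of each measure, its r was 0.59 and 0.63, and with the mouse number as a term 0.33 and 0.71. Dgat1 with Arntl did not pass after adjustment (r = 0.67, permutation p = 0.0106, adjusted 0.0855, and rho = 0.60, p = 0.0225, adjusted 0.139), with r = 0.46 without the 2 farthest mice and 0.83 and 0.73 within the slides and 0.61 with the mouse number as a term.

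With the lipogenic genes, no relation passed after adjustment. Those with the smallest p were of Lpin3 and Lpin2, with signs opposite to those above: r = 0.81 (permutation p = 0.00118, adjusted 0.108) and rho = 0.85 (p = 0.00019, adjusted 0.0677) for Lpin3, and r = -0.64 (p = 0.0129, adjusted 0.179) and rho = -0.74 (p = 0.00498, adjusted 0.114) for Lpin2. Without the 2 mice farthest from the median, Conv + LM mouse 13 and Conv + PBS mouse 6, they were 0.67 and -0.39, so that of Lpin2 rests in part on those mice. With the mouse number as a term, they were 0.60 and -0.069. Lpin1 gave r = -0.40 (permutation p = 0.173, adjusted 0.506), rho = -0.55 (p = 0.0431, adjusted 0.255) and r = -0.12 without the 2 farthest mice. On slide 1 the values of Lpin3 and Lpin2 were 0.61 and -0.69 and on slide 2 0.80 and -0.48. Gpam and Dgat2, at the first and last step of assembly, gave r = 0.28 (permutation p = 0.343, adjusted 0.675) and rho = 0.18 (p = 0.542, adjusted 0.800), and r = 0.20 (permutation p = 0.468, adjusted 0.763) and rho = 0.20 (p = 0.464, adjusted 0.748). For Dgat2 the slides gave opposite values, -0.70 on slide 1 and 0.71 on slide 2, and for Gpam 0.30 and -0.47, and without the 2 farthest mice r was 0.41 for Gpam and 0.019 for Dgat2.

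**Figure D5:**
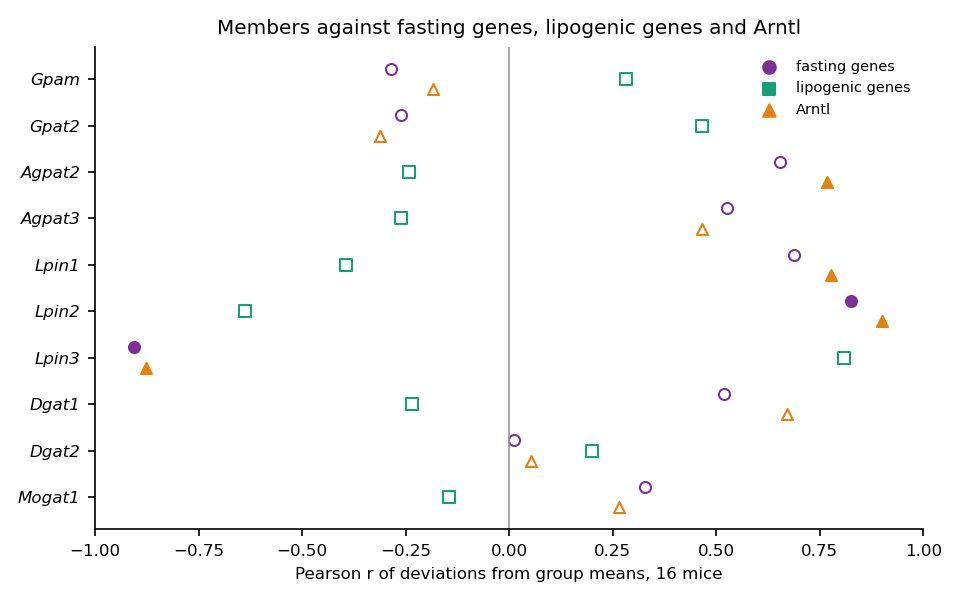
Pearson r (x axis) of the deviations of each gene (y axis) from its group means with those of the fasting genes (circles), the lipogenic genes (squares) and Arntl (triangles), over 16 mice. Symbols are filled where r and rho both had a permutation p under 0.05 after adjustment over all genes, which holds for the 3 lipins and Agpat2 with Arntl, for Lpin2 and Lpin3 with the fasting genes, for none with the lipogenic genes and for none of the relations of Gpam, Gpat2, Agpat3, Dgat1, Dgat2 and Mogat1.

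Other values of the mice of low Lpin1 are given here. Pdk4, the fasting-induced inhibitor of pyruvate dehydrogenase, stood at -0.89, -1.07 and -1.63 in Conv + PBS mouse 1, Conv + LM mouse 13 and Conv + OM(HFD) mouse 25 and reached 4.22, 3.80 and 3.44 in their groups. Arntl stood at -2.78, -3.28 and -2.83 in them. Conv + PBS mouse 2 went the other way, with Pdk4 at -0.90, Arntl at -2.89 and a mean of the fasting genes of 2.43, each below that of mouse 1, but Lpin1 at 5.39. The mean of the 5 Kupffer cell genes was highest of its group in Conv + PBS mouse 1 (3.34) and Conv + OM(HFD) mouse 25 (2.10) and lowest of its group in Conv + LM mouse 13 (0.33). Conv + PBS mouse 1 and Conv + OM(HFD) mouse 25 had array weights of 0.58 and 0.61, among the 3 lowest with Conv + LM mouse 14 (0.56), and Conv + LM mouse 13 one of 0.84, where 1 is a typical array. Their part in the lipin levels was not tested.

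The genes whose pattern over the 16 mice was most like that of a lipin were Zbtb16 (r = 0.93) and Tesk2 (0.93) for Lpin1, Tesk2 (0.92) and Plekha1 (0.92) for Lpin2, and 9030617O03Rik (0.95) and Trdmt1 (0.94) for Lpin3. Gpam was closest to an unnamed transcript, ENSMUST00000188254 (0.77), and Lsm3 (0.76), and Gpat2 to 4930404H11Rik (0.85) and Hcfc1 (0.85). Agpat2 came closest to Timm23 (0.89) and an unnamed transcript (0.87), Agpat3 to D6Ertd527e (0.84) and an unnamed transcript (0.83), Dgat1 to the unnamed transcripts ENSMUST00000121691 (0.90) and ENSMUST00000120110 (0.87), Dgat2 to Coro2b (0.89) and Uqcc1 (0.87) and Mogat1 to Cmbl (0.88) and an unnamed region (0.85). These are the highest of 20327 values of r each and carry no test.

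Since the levels of the lipins were related between mice, Lpin1 with Lpin2 and both against Lpin3, the 250 bases before their RefSeq start sites on GRCm38.p6 are shown and were searched on both strands for CACGTG, the E-box bound by BMAL1 and CLOCK, for TTANGTAA, the D-box, and for AGGTCA, a half-site of nuclear receptors. None of these motifs overlaps another in the windows shown. Capitals mark a match. A match is a description of letters, and no match says only that these letters are not in the window.
Lpin1, chr12:16610967-16611216, minus strand: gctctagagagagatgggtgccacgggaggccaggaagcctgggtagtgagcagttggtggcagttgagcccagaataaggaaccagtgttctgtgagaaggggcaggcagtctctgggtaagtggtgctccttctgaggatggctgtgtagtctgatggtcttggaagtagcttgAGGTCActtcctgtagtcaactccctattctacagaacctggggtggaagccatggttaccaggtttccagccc
Lpin2, chr17:71183282-71183531, plus strand: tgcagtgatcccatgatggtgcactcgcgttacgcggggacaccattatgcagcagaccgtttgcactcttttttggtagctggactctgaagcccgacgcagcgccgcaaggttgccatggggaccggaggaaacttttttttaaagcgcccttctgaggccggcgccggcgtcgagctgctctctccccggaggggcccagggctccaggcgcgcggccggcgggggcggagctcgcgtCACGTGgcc
Lpin3, chr2:160880420-160880669, plus strand: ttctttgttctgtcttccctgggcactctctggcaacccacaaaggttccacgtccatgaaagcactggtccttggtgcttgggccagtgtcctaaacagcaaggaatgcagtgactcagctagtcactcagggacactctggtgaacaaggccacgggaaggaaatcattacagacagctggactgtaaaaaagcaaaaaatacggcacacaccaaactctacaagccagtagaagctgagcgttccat

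Lpin1 has 1 AGGTCA match, 74 bases before the start, in a table where 14% of the 32851 windows of this length hold one. Lpin2 has 1 CACGTG match in the first of its 3 windows, 9 bases before the start, against 6.02% of all windows, and no match in the other windows. Neither of the 2 Lpin3 windows holds any of the motifs, and the D-box, found in 2.06% of windows, is in none of the 12 windows that 8 of the 10 genes have in this table. Among the other genes, 1 of the 2 Gpam windows holds AGGTCA, 196 bases before the start.

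The rest of the pathway was examined through 71 genes tested from lists of other acyltransferases and phosphatidate phosphatases, of the supply of glycerol-3-phosphate and acyl-CoA, of the phospholipid branch, of VLDL assembly and of regulators. In Conv + OM(HFD) against Conv + PBS 0 rose and 1 fell at an unadjusted limma p under 0.05, in Conv + LM against Conv + PBS 1 rose and 1 fell, and between the transplants 0 did either, beside 3.27%, 3.95% and 2.71% of all genes tested, so these shares were not above the background. Their medians were -0.0099, 0.0022 and 0.012. The gene lower in both transplanted groups was Insig1, which holds SREBP in the endoplasmic reticulum, by 19.8% in Conv + OM(HFD) (log2 difference -0.32, SE 0.10, limma p of 0.00754) and by 19.1% in Conv + LM (-0.31, SE 0.10, limma p of 0.00988). The 6 vehicle mice enter both differences. The gene higher in Conv + LM was Agpat5, a mitochondrial relative of Agpat2, by 12.9% (log2 difference 0.17, SE 0.076, limma p of 0.0360). The median within-group SD of the 71 genes was 0.21, and only Mogat2, the intestinal monoacylglycerol acyltransferase, at a level of -3.23, had a larger one (0.88) than Lpin1.

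Fatty acid synthesis feeds these enzymes. Of the 10 lipogenic genes, 0 were higher and 5 lower with the obese microbiota against vehicle at an unadjusted limma p under 0.05, beside 3.27% of all genes tested, with log2 differences of -0.89 to -0.11 and a median of -0.57. Those lower were Fasn, the fatty acid synthase, by 40.8% (log2 difference -0.76), Acaca, which makes malonyl-CoA, by 31.4% (-0.54), Elovl6, an elongase, by 35.7% (-0.64), Acss2, which activates acetate, by 30.5% (-0.52), and Thrsp, a lipogenic regulator, by 46.1% (-0.89). By the exact permutation test, Acss2 (p = 0.0195) and Thrsp (p = 0.0303) passed 0.05 and Fasn (p = 0.0671), Acaca (p = 0.0541) and Elovl6 (p = 0.0606) did not. For Conv + LM, 1 of 10 was lower, Me1, a source of NADPH, by 25.6% (-0.43), beside 3.95% of all genes, with a median of -0.29. Between the transplants 1 of 10, Thrsp, was lower in Conv + OM(HFD), by 49.8% (-0.99), beside 2.71% of all genes. None of these passed an adjusted p of 0.05 in limma. In Conv + OM(HFD) against Conv + PBS, Gpat2 was 15.4% and Gpam 11.9% lower at an unadjusted limma p under 0.05, and neither passed an adjusted one. Both calls were lost under other settings, and the Gpat2 difference was -0.0015 on slide 2. Dgat1, Dgat2, Mogat1, Agpat2, Agpat3 and the lipins had no unadjusted limma p under 0.05 in the fit of all 16 mice without a covariate. Their differences were not tested against those of Gpat2 and Gpam, and that of Mogat1 was -0.30 on the log2 scale.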

How the data were processed

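Liver RNA of 16 mice (6 Conv + PBS, 5 Conv + LM, 5 Conv + OM(HFD), grouped by their labels) had been hybridised, 1 mouse per array, to Agilent SurePrint G3 arrays from 200 ng of total RNA on 2 slides that each held all groups. The authors extracted the signals with Agilent Feature Extraction 10.10.1.1, and the deposited intensity of each spot was corrected for background and not normalised between arrays. The authors also deposited log2 values, which matched quantile-normalised median intensities and served as an alternative. Here, control spots and outlier-flagged spots were left out (0 flagged spots among the 10 genes), log2 was taken, each array was set to 0 at its 75th percentile, a probe was kept if 5 or more of the 16 arrays read it well above background (30659 of 56605 probes), and the brightest probe stood for a gene. Groups were compared with limma 3.58.1 in R 4.3.3 (lmFit and eBayes, 3 groups in 1 fit, Benjamini-Hochberg adjustment over 20400 genes) and, for single genes, by exact two-sided permutation over mice. Changes of 1 on the log2 scale, up or down, were simulated in 200 genes with noise independent between genes. They were recovered at an adjusted limma p of 0.05 for 143 to 156 of them, with 5 to 7 false calls. The group differences of the 10 genes are smaller, so their recovery was not tested. Plots and correlations used Python 3.11.15, with 100000 permutations of mice within groups and adjustment over all genes. Precision is limited by 5 or 6 arrays per group.

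The genes named are the 10 chosen by name, pathway genes at an unadjusted limma p under 0.05, and the 2 genes most alike each of the 10. The genes and the lists were chosen with earlier results of these data known, and 1 gene of the fasting list is not reported here and was left out of its mean. RefSeq windows and symbols are those of GRCm38.p6, and 10 of 10 names are current.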

Additional observations from a re-analysis of the deposited data

Results flagged for a closer look

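Among 30 groups of values (10 genes in 3 groups), 2 held a mouse that stood apart from its group mates by Dixon's criterion, and chance gives such a gap in about 1 of 20 groups. Lpin1 in Conv + PBS mouse 1 was at 3.50, with a gap to the next mouse of 0.75 of the range of the group. Lpin2 in Conv + LM mouse 13 was at 5.27, with a gap of 0.72 of the range. Without Conv + PBS mouse 1 the log2 difference of Lpin1 was -0.31 between Conv + OM(HFD) and Conv + PBS, in place of 0.072, and without Conv + LM mouse 13 that of Lpin2 was 0.020 between Conv + LM and Conv + PBS, in place of -0.18. The limma p of these differences was 0.382 and 0.918.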

How the results depend on the processing

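The difference of Gpat2 between Conv + OM(HFD) and Conv + LM had an unadjusted p under 0.05, by the test of each setting, in all 15 other settings (log2 difference -0.41 to -0.25). It also did so without each of the 10 mice in turn (-0.44 to -0.34, limma p from 0.0020 to 0.0138). Gpat2 has only 1 probe on the array, so no second probe could be set beside this difference, and the mean of all probes leaves it unchanged. None of the 10 genes passed an adjusted limma p of 0.05 under any setting run. Over the whole array, 1 gene, which is none of the 10 and in none of the lists, passed it in Conv + OM(HFD) against Conv + PBS without the 3 mice of lowest Lpin1, and no gene did under the other settings. The number of the 10 genes at an unadjusted p under 0.05 was less stable in Conv + OM(HFD) against Conv + PBS. It was 2, and it became 0 with normexp background correction, with the authors' processed log2 values, without a filter on dim probes and with only the 2 groups compared, and likewise 0 in settings chosen after seeing the data, with the fasting genes or Arntl as a covariate and without the 3 mice of lowest Lpin1. It became 1 with quantile normalisation, the mean of all probes, the methods' t-test and the exact permutation test, and lay between 0 and 2 without 1 mouse. In Conv + LM against Conv + PBS it was 0, also 0 without each mouse, and 1 with each of 3 covariates, where Lpin3 passed at 0.28 with the mouse number within its group (limma p of 0.0188), at 0.24 with the fasting genes (limma p of 0.0442) and at 0.32 with Arntl (0.0174). In these 3 fits, in the same order, 1152, 1023 and 1220 of the 20400 genes tested had an unadjusted limma p under 0.05. Without a covariate 806 did, so calls rose over the whole array. Between the transplants the number of the 10 genes was 1, and 1 to 2 without 1 mouse, with Agpat2 at -0.24 without Conv + OM(HFD) mouse 30. The causes were not tested.

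Of the 15 other settings, 6 change the test, the genes tested or the residual spread and leave each log2 difference of the 10 genes as it was. Of 270 log2 differences under the other 9, 21 changed sign, none of them past the threshold. In Conv + OM(HFD) against Conv + PBS these were Lpin2 at 0.012 (normexp), 0.014 (authors' values), 0.016 (slide as a block), 0.044 (array weights), 0.15 (mean of all probes) and 0.030 (without the 3 mice), Dgat1 at 0.0050 (normexp) and 0.0086 (authors' values), Lpin3 at -0.021 (array weights), Agpat2 at 0.00021 (without the 3 mice), and Lpin1 at -0.11 (fasting genes), -0.10 (Arntl) and -0.055 (without the 3 mice). In Conv + LM against Conv + PBS they were Dgat2 at 0.0059 (quantile) and Lpin2 at 0.021 (mean of all probes). Between the transplants they were Agpat3 at -0.021 (normexp), -0.012 (quantile), -0.035 (authors' values), -0.028 (fasting genes) and -0.0049 (Arntl) and Lpin1 at -0.050 (fasting genes). Without 1 mouse, 33 of 320 values changed sign. The ranges in Conv + OM(HFD) against Conv + PBS were -0.31 to 0.33 for Lpin1, -0.11 to 0.14 for Lpin2, -0.033 to 0.21 for Lpin3, -0.13 to 0.050 for Agpat2 and -0.0083 to 0.12 for Agpat3. In Conv + LM against Conv + PBS they were -0.52 to 0.20 for Lpin1, -0.29 to 0.020 for Lpin2, -0.075 to 0.013 for Gpam, -0.054 to 0.0076 for Dgat2, -0.019 to 0.080 for Dgat1 and -0.37 to 0.13 for Mogat1. Between the transplants they were -0.13 to 0.46 for Lpin1, -0.025 to 0.32 for Lpin2, -0.057 to 0.066 for Agpat3 and -0.43 to 0.067 for Mogat1. The 6 values of r of the lipins with the fasting genes and Arntl kept their sign in 7 added settings, with sizes from 0.64 to 0.95. With the mouse number as a term, also added after seeing the data, their sizes were 0.085 to 0.49, and that of Lpin1 with the fasting genes changed sign, to -0.085. No paired analysis was run, because the mouse numbers are not shared between groups and no label ties a mouse of 1 group to a mouse of another.

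Precision is limited by 5 or 6 arrays per group. Conv + OM(HFD) and Conv + LM were each set against the same 6 Conv + PBS mice. The time of day at which each mouse was killed and the cage of each mouse are not given in the sources used here.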
